A study of Homo sapiens with 4 samples.

Results

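GADD45A, GADD45B and GADD45G make up the GADD45 family of stress-inducible genes, and their transcripts were followed here in U87 cells with or without a knockdown of glutamate dehydrogenase. The 3 genes were found by symbol among the 57820 gene rows of the deposited count table, where each symbol had a single row. The family was selected on the shGlud1 against shNT difference in these same libraries, so its values are given as a description, with no test. U87 is an established human glioma cell line. One group carried a non-targeting control hairpin (shNT, n = 2 libraries) and the other a hairpin labelled shGlud1 (n = 2 libraries), which targets GLUD1, the gene for mitochondrial glutamate dehydrogenase. Both groups were kept in low glucose for 6 h, so no library shows the cells in full glucose. The titles give 1 hairpin name against GLUD1, shGlud1, followed by a number. They do not say whether the number marks a replicate or a hairpin, and it is read here as a replicate. Nothing in the labels states that replicates were separate cultures. The p-values below thus rest on the spread between library pairs, and that spread may be technical. The 2 shNT libraries are called the control and the 2 shGlud1 libraries the knockdown.

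GADD45 proteins are small, acidic and without known enzyme activity. They act by binding other proteins, among them the kinase MAP3K4, which starts the p38 and JNK stress cascades, the replication clamp PCNA, the cell cycle inhibitor p21 and the mitotic kinase CDK1. Their genes are switched on quickly by DNA damage, by amino acid or endoplasmic reticulum stress and by cytokines. GADD45A is induced through ATF4 among other factors, GADD45B responds to NF-kB and TGF-beta signals, and GADD45G was described as a cytokine-responsive member.

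Promoters are shown for GADD45B and GADD45G, the members with the largest differences between the groups and those matched in the RefSeq promoter table (GRCh38.p14, 2 of 3 members). Each run holds the 250 bases before the annotated start, plus strand, 5′ to 3′, from chr19:2475877-2476126 for GADD45B and chr9:89604762-89605011 for GADD45G. Capitals mark matches to the motifs named after the sequences.
GADD45B: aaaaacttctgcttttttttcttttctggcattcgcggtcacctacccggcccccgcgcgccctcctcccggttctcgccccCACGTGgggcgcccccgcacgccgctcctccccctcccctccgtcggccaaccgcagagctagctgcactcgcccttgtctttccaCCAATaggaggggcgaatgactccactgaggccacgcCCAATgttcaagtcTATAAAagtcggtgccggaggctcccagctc
GADD45G: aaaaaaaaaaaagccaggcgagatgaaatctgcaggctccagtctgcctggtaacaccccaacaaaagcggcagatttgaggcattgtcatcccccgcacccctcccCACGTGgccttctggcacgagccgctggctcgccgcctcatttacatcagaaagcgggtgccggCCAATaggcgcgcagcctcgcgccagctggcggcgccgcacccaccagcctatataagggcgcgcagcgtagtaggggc

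Both windows were rich in G and C, at 63.2% for GADD45B and 61.6% for GADD45G. Both held the E-box CACGTG, starting 168 bases before the start of GADD45B and 143 bases before that of GADD45G, and 6.3% of the 35116 promoter windows of this length held it on either strand. Both also held the CCAAT box, CCAAT, at 82 and 45 bases before the start in GADD45B and at 79 bases in GADD45G, against 32.0% of all windows. The TATA box TATAAA lay 31 bases before the start of GADD45B, and 10.7% of windows held it. GADD45G had no match to these exact letters, but its window holds the similar run tatataa near the start. No match was found on either strand to the octamer ATGCAAAT (1.6% of windows), the cAMP response element TGACGTCA (1.6%), the AP-1 site TGANTCA (6.6%), the heat shock element pair GAANNTTC (5.8%), the GC box GGGCGG (42.6%) or the ATF4 and CHOP composite TGATGNAAT (0.9%). These matches describe letters in the windows and do not show binding.

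The deposited expected counts summed to between 16546849 and 18537314 per library, and 14616 genes had enough counts to be tested with edgeR's quasi-likelihood test. Levels are CPM, counts scaled to a common library size with TMM factors that correct for composition. Each log2 fold change sets the knockdown against the control, so that a negative value is lower in the knockdown, and carries a standard error (SE). The targeted gene GLUD1 stood at 78.1 and 76.5 CPM with the control hairpin and at 34.0 and 44.5 CPM in the knockdown (log2 fold change -0.98, SE 0.13, adjusted p = 1.26e-12). Scaled by total counts alone, GLUD1 was at 64.4 and 64.6 CPM in shNT and at 39.1 and 55.3 CPM in shGlud1 (-0.45, adjusted p = 0.003). In this comparison 61.0% of tested genes were called at an adjusted p under 0.05, 29.1% as lower and 31.9% as higher, so a call on its own is common. When libraries were scaled by total counts alone the split was 2000 lower and 7592 higher, and the median log2 fold change of all genes moved from 0.06 to 0.57. Of the markers checked, VIM and CD44 were abundant, GFAP, OLIG2 and S100B had at most 6 counts in any library, SOX2 had 0 in all 4, and so had CDKN2A, a gene known to be deleted in U87. The glial markers were thus near or at 0 in both groups. VIM was at 2425 and 2279 CPM in the control and at 4436 and 4915 CPM in the knockdown, and NES at 8.06 and 7.19 against 29.8 and 28.5 CPM. Of 4 immune markers PTPRC and CD3E had at most 1 count in a library. CD14 had 39 and 42 counts in the control and 1 and 12 in the knockdown, and CD68, which many cell types express, was at 398 and 357 against 290.2 and 275 CPM, so both were lower in the knockdown on the TMM scale, as the GADD45 genes were. The neuronal markers were higher in the knockdown, RBFOX3 with 3 and 4 against 16 and 21 counts, SNAP25 with 18 and 18 against 37 and 58, and SYT1 with 58 and 58 against 100 and 119. Of 3 epithelial and 2 endothelial markers none passed 9 counts. The part of these markers in any result was not tested.

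In the knockdown GADD45B was 10.1-fold and GADD45G 38.8-fold lower than in the control, while GADD45A was 1.59-fold lower. The smaller difference of GADD45A was close to that of other genes with transcripts of its size, and those of GADD45B and GADD45G were not. All 3 members passed the count filter, and in all 3 both knockdown values lay below both control values, a pattern that 38.2% of tested genes showed. In bulk RNA a lower level per cell and a smaller share of expressing cells cannot be told apart.

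GADD45A (ENSG00000116717, GRCh38 chromosome 1, 67685061 to 67688338, plus strand) encodes the first described member, which binds PCNA, p21 and CDK1 and takes part in the G2 checkpoint. Its counts were 2092 and 2169 in the control and 1691 and 2330 in the knockdown. These correspond to 153 and 142 CPM in shNT and 84.5 and 101 CPM in shGlud1. Both shGlud1 values were below both shNT values, by a modest margin. The group means were 147 ± 8.13 CPM and 92.8 ± 11.7 CPM (SD, n = 2 each), a log2 fold change of -0.67 (SE 0.13), and 22.9% of tested genes had a lower value. Scaled by total counts alone, GADD45A was at 126 and 120 CPM in shNT and at 97.1 and 126 CPM in shGlud1. On that scale the groups overlapped, because shGlud1 replicate 2 lay within the control range.

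GADD45B (ENSG00000099860, chromosome 19, 2476122 to 2478259, plus strand) encodes a member known for its induction by NF-kB and TGF-beta and for its binding to the JNK-activating kinase MAP2K7. Its counts were 3758 and 3941 in the control and 534 and 603 in the knockdown. The levels were 275 and 258 CPM in shNT and 26.7 and 26.2 CPM in shGlud1. The libraries of each group lay close together and the groups were far apart. The means were 266 ± 12.5 CPM and 26.4 ± 0.37 CPM (SD, n = 2 each), with a log2 fold change of -3.33 (SE 0.15). It ranked 77 of 14616 from the lowest fold change, and 25 when only genes averaging 5 CPM or more were ranked. Scaled by total counts alone it stood at 227 and 218 CPM against 30.7 and 32.5 CPM, so the separation did not rest on the TMM factors.

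GADD45G (ENSG00000130222, chromosome 9, 89605013 to 89606555, plus strand) encodes the least abundant member of the family in these cells. Its counts were 264 and 289 in the control and 6 and 15 in the knockdown. The levels were 19.3 and 18.9 CPM in shNT and 0.30 and 0.65 CPM in shGlud1. With so few counts the exact 95% Poisson intervals, which cover counting error only, were wide in shGlud1, at 0.11 to 0.65 CPM in replicate 1 and 0.36 to 1.07 CPM in replicate 2. The shNT intervals began at 17.1 and 16.8 CPM, well above both. The means were 19.1 ± 0.32 CPM and 0.48 ± 0.25 CPM (SD, n = 2 each), with a log2 fold change of -5.28 (SE 0.29), rank 31 of 14616 from the lowest and rank 8 when only genes averaging 5 CPM or more were ranked. The size of this difference depended on the library, since the log2 fold change was -5.95 without shGlud1 replicate 2 and -4.88 without shGlud1 replicate 1.

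**Figure D1:**
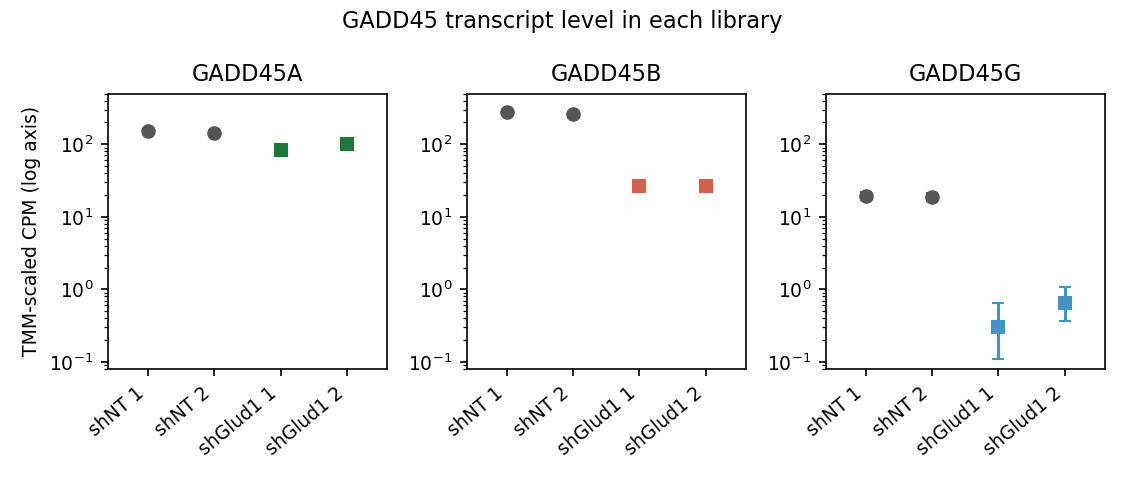
TMM-scaled CPM (log axis) of each GADD45 gene in the 2 shNT libraries (grey circles) and the 2 shGlud1 libraries (coloured squares), with exact 95% Poisson intervals of the counts as bars. GADD45A is at 142 and 153 CPM in shNT and at 84.5 and 101 CPM in shGlud1, GADD45B at 258 and 275 against 26.2 and 26.7 CPM, and GADD45G at 18.9 and 19.3 against 0.30 and 0.65 CPM.

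These counts showed no sign of division between genes, though the counting program is not known. All 12 member values were whole numbers (within 1e-06), whereas 20.1% of values above 0 in the table were not. GENCODE 29 places 0 other genes over any of the 3 loci, which matters because the library kit did not mark strand.

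The order of levels within the family differed between the groups. Per kilobase of the longest coding transcript, GADD45B led in the control cells at 200.5 and 188 CPM per kb, followed by GADD45A at 102 and 94.7 and GADD45G at 18.2 and 17.7. In the knockdown GADD45A led at 56.5 and 67.6 CPM per kb, followed by GADD45B at 19.4 and 19.1 and GADD45G at 0.28 and 0.61. No neighbours in either order overlapped between the libraries of a group. GADD45B made up 62.4% and 62.5% of the family's CPM per kb in shNT and 25.5% and 21.8% in shGlud1, while the share of GADD45A went from 31.9% and 31.6% to 74.1% and 77.5%. GADD45G contributed 5.66% and 5.91% in shNT and 0.37% and 0.70% in shGlud1. The summed family level was 321 and 300.1 CPM per kb in shNT and 76.2 and 87.3 in shGlud1.

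**Figure D2:**
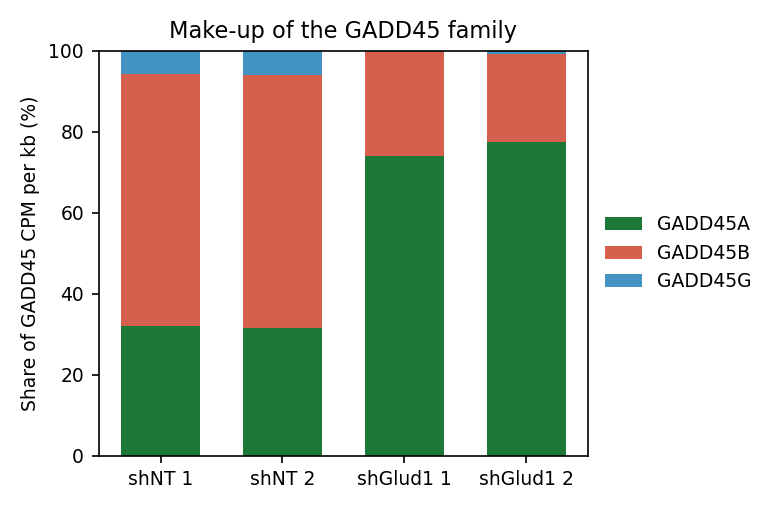
Share of each gene in the summed GADD45 CPM per kb (vertical axis, percent) in each of the 4 libraries. GADD45B is the largest part in both shNT libraries, near 62%, and GADD45A in both shGlud1 libraries, at 74.1% and 77.5%.

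A ratio of counts within a library does not depend on how libraries are scaled. GADD45B had 1.80 and 1.82 counts per GADD45A count in the control and 0.32 and 0.26 in the knockdown, 6.32-fold lower on average. On the log2 scale the shNT pair differed by 0.02 and the shGlud1 pair by 0.29, against -2.66 between the groups. For every GADD45G count there were 7.92 and 7.51 GADD45A counts in shNT and 282 and 155 in shGlud1. The GADD45G to GADD45A ratio was 27.1-fold lower in shGlud1 (log2 difference -4.76, with gaps of 0.08 and 0.86 within the shNT and shGlud1 pairs). Relative to GADD45B, GADD45G was 4.29-fold lower (log2 difference -2.10, with a gap of 1.15 within the shGlud1 pair). The 3 members thus differed from each other in the size of their change by more than the libraries of a group differed.

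The genes share a compact structure that played no part in finding them. Each has 4 exons in its longest coding transcript, and the loci span 3278 bases (GADD45A), 2138 bases (GADD45B) and 1543 bases (GADD45G), against a median of 33161 bases for the 12422 protein-coding genes tested. Their longest coding transcripts are 1496, 1373 and 1065 bases long, against a median of 3388 bases. The GC share of these transcripts is 51.5% for GADD45A, 57.4% for GADD45B and 63.9% for GADD45G, with a median of 48.8% over the same genes. The AU-rich pentamer ATTTA, found in many short-lived mRNAs, occurs 2 times in the 3′ UTR of GADD45A and 0 times in those of GADD45B and GADD45G, while 71.7% of the protein-coding genes tested hold it at least once.

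Transcript length moved with the fold change across the whole table, and the members have to be read beside it. Over the 12422 protein-coding genes, the Spearman correlation of longest coding transcript and log2 fold change was 0.49, as a description across genes of the same libraries. The 887 such genes with a coding transcript of 1000 to 1500 bases had a median of -0.69, and 65.2% of them were called lower. GADD45A differed from that median by 0.02, and 51.3% of the class had a lower value. The difference from the class median was -2.64 for GADD45B, with 0.45% of the class lower, and -4.59 for GADD45G, with 0.23% lower. With a smooth trend on coding transcript length removed from every library (the coding length trend), the log2 fold change was -0.17 for GADD45A, -2.78 for GADD45B and -4.54 for GADD45G, and the median of all genes was -0.03. With the trend taken on the longest transcript of any kind (the length trend), which for GADD45B has 2007 bases, the values were -0.19, -3.02 and -4.67.

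**Figure D3:**
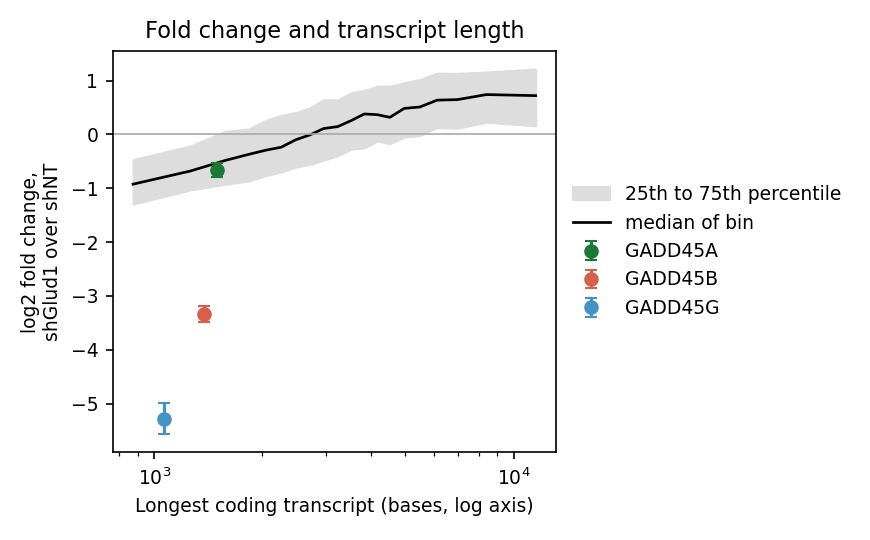
Log2 fold change (vertical axis) against longest coding transcript (bases, log axis), with the median (line) and the 25th to 75th percentile (grey band) of protein-coding genes in 20 bins of equal size, and the GADD45 genes as points with their SE. GADD45A lies inside the band, and GADD45B and GADD45G lie far below it.

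Across the 14 alternative settings every member kept a negative log2 fold change. GADD45A ranged from -0.80 to -0.14, GADD45B from -3.39 to -2.78 and GADD45G from -5.95 to -4.54. Total counts gave the smallest value of GADD45A, at which it still lay below the median of all genes.

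**Figure D4:**
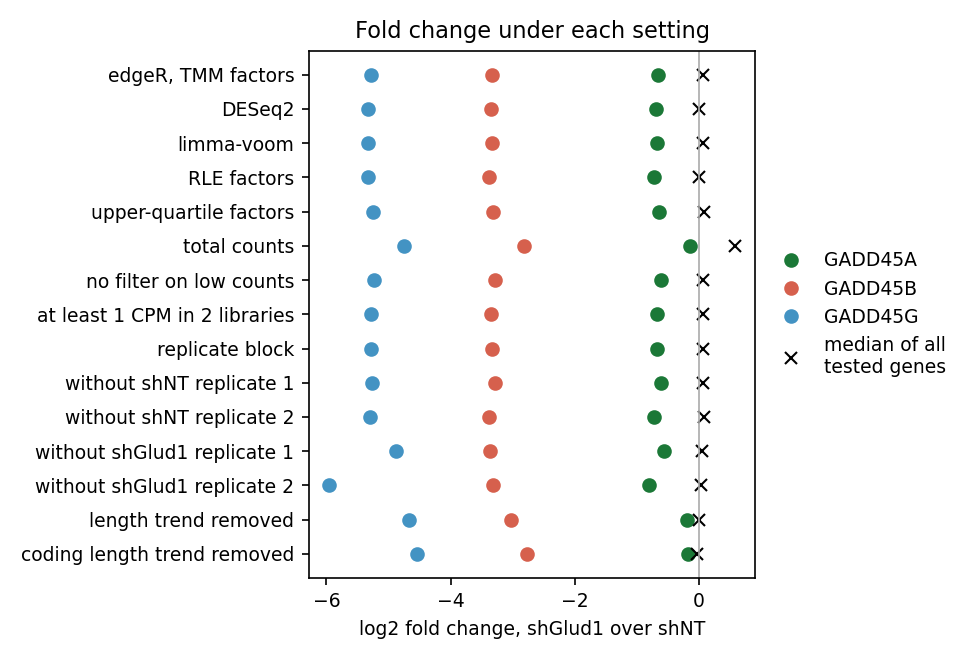
Log2 fold change (horizontal axis) of each GADD45 gene and the median of all tested genes (crosses) under the reported fit and 14 alternatives. The order GADD45G, GADD45B, GADD45A holds in every row, and GADD45A comes within 0.2 of 0 in the rows for total counts and for removed length trends.

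The GADD name was given to a set of genes induced by growth arrest and DNA damage, and other genes of that set or with a DDIT symbol were listed beside the family. Of 5 such genes 3 fell and 1 rose. Their median was -0.93 on the log2 scale, against 0.06 for all genes. Of all tested genes 29.1% were called lower and 31.9% higher, and these shares stand beside list counts of the reported fit below. Beside list counts under total counts stand 2000 genes lower and 7592 higher of the 14616 tested. With the length trend removed these were 4191 and 3942, and with the coding length trend removed 4302 and 3747. DDIT3, once called GADD153, encodes the stress factor CHOP. It was at 745 and 763 CPM in shNT and at 71.2 and 73.1 CPM in shGlud1, a log2 fold change of -3.39 (SE 0.16, adjusted p = 5.82e-97). PPP1R15A, once called GADD34, encodes the phosphatase subunit that restarts translation after stress. It was at 691 and 592 CPM in shNT and at 69.3 and 72.0 CPM in shGlud1 (log2 fold change -3.18, SE 0.16, adjusted p = 6.9e-90). The differences of these genes were close in size to that of GADD45B. DDIT4, which encodes the mTORC1 inhibitor REDD1, fell from 403 ± 50.4 CPM to 212 ± 2.65 CPM (-0.93, SE 0.14, adjusted p = 3.6e-10). PPP1R15B, the constitutive relative of PPP1R15A, rose from 6.47 ± 2.31 CPM to 12.8 ± 1.81 CPM (0.98, adjusted p = 8.13e-06). DDIT4L was not called at 1.41 ± 0.13 and 2.24 ± 0.27 CPM (adjusted p = 0.137).

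Genes for transcription factors known to activate a GADD45 gene differed in direction. Of 18 listed, 16 were tested, of which 4 fell and 8 rose (median 0.59). ATF4, which induces GADD45A and DDIT3 under amino acid stress, was at 1061 and 956 CPM in shNT and at 293 and 283 CPM in shGlud1. Its groups were well separated (log2 fold change -1.81, SE 0.15, adjusted p = 8.84e-30). EGR1, an immediate-early factor that can bind the GADD45A promoter, fell from 11.4 ± 0.59 CPM to 1.47 ± 0.18 CPM (-2.95, SE 0.27, adjusted p = 7.03e-27). SMAD3, a mediator of TGF-beta signals, rose from 16.1 ± 1.45 CPM to 49.0 ± 3.93 CPM (1.60, adjusted p = 7.77e-26), and BRCA1 (1.59, adjusted p = 3.42e-07) and FOXO3 (1.04, adjusted p = 8.04e-07) rose as well. FOXO3 was not called after removal of the coding length trend (0.40, adjusted p = 0.0544). Under total counts 3 activators were called lower and 12 higher (median 1.11), against 5 and 5 with the length trend removed and 5 and 4 with the coding length trend removed. Of the 2 repressors of GADD45A listed, MYC fell from 31.2 ± 1.98 CPM to 16.3 ± 1.80 CPM (-0.94, adjusted p = 6.03e-09). ZNF350, a zinc finger partner of BRCA1, was at 1.03 ± 0.21 and 2.06 ± 0.27 CPM (0.99, adjusted p = 0.0433), a call that ended with DESeq2 (adjusted p = 0.241), with RLE factors (0.0577) and without any 1 of the 4 libraries (0.0654 to 0.217, lowest without shNT replicate 2 and highest without shGlud1 replicate 1).

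The pentamer ATTTA occurs 2 times in the 3′ UTR of GADD45A and 0 times in those of GADD45B and GADD45G. GADD45A transcripts are short-lived and are degraded through AU-rich element binding proteins and nonsense-mediated decay. Of 12 genes for such factors, 6 rose and 2 fell (median 0.45). HNRNPD, which encodes the AU-rich element binding protein AUF1, rose from 68.9 ± 3.30 CPM to 127 ± 11.2 CPM (0.89, adjusted p = 8.32e-11). Among nonsense-mediated decay genes UPF2 rose by the largest amount of those called (2.12, adjusted p = 8.67e-16), and SMG1 rose (1.11, adjusted p = 4.26e-08), though SMG1 was not called after removal of the coding length trend (0.39, adjusted p = 0.0555). SMG9 (-0.65, adjusted p = 1.36e-05) and SMG5 (-0.54, adjusted p = 0.000169) fell, and neither was called under total counts (-0.13 and -0.02). Under total counts the list had 10 genes higher and 0 lower, after removal of the length trend 4 higher and 3 lower, and after removal of the coding length trend 2 higher and 3 lower.

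Among 13 genes for proteins reported to bind a GADD45 protein, 7 rose and 5 fell (median 0.49). MAP3K4, the kinase that GADD45 proteins activate, was at 3.66 and 4.31 CPM in shNT and at 12.0 and 12.8 CPM in shGlud1 (log2 fold change 1.63, SE 0.23, adjusted p = 4.79e-12). The cell cycle partners CCNB1 (1.87, adjusted p = 1.89e-40), AURKA (1.80, adjusted p = 3.1e-37), PCNA (1.02, adjusted p = 3.31e-13) and CDK1 (0.49, adjusted p = 0.000742) rose, as did the repair endonuclease gene ERCC5 (1.93, adjusted p = 1.27e-21) and MAPK14, which encodes p38-alpha (0.87, adjusted p = 7.39e-05). CDKN1A, which encodes p21, was at 272 and 261 CPM in shNT and at 281 and 265 CPM in shGlud1. Its groups overlapped and it was not called (0.04, SE 0.14, adjusted p = 0.839). Under total counts CDKN1A was called higher (0.55, adjusted p = 7.42e-06), near the median of all genes on that scale (0.57). GADD45GIP1, whose product binds GADD45G and serves the mitochondrial ribosome, fell from 673 ± 59.7 CPM to 372 ± 79.9 CPM (-0.85, adjusted p = 4e-08). NPM1, the nucleophosmin gene, fell from 1233 ± 87.2 CPM to 783 ± 10.0 CPM (-0.65, adjusted p = 8e-05), a call that ended under total counts (-0.14) and with the length trend removed (-0.27). MAP2K7 (-0.42, adjusted p = 0.00301), TAF12 (-0.34, adjusted p = 0.0191) and the glycosylase gene TDG (-0.46, adjusted p = 0.0483) were lower, and each had the other sign under total counts (0.10, 0.18 and 0.056). The median of all genes under total counts was 0.57, and each still lay below it. TDG was not called with DESeq2 (adjusted p = 0.182), with upper-quartile factors (0.061) or with no filter on low counts (0.124). TAF12 was not called without that filter either (0.0708). The calls of MAP2K7, TAF12 and TDG also depended on single libraries. MAP2K7 lost its call without shNT replicate 2 (adjusted p = 0.068), TAF12 without shNT replicate 1, shNT replicate 2 or shGlud1 replicate 2 (0.0894, 0.165 and 0.0636) and TDG without shNT replicate 1, shNT replicate 2 or shGlud1 replicate 1 (0.0816, 0.297 and 0.127). The list then had 3 genes called lower without shNT replicate 1 and 2 without shNT replicate 2.

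Genes of the p38 and JNK cascades were listed next, with MAP3K4 and other kinases of its level among them. Of 17 listed, 16 were tested, of which 7 rose and 2 fell (median 0.48). In the reported fit 31.9% of all tested genes were called higher and 29.1% lower. After removal of the length trend the list had 6 genes higher and 3 lower. Its median was then 0.10, against -0.01 for all genes. With the coding length trend removed 7 were higher and 2 lower. Besides MAP3K4, the JNK gene MAPK9 (1.27, adjusted p = 5.87e-10) and the kinase gene MAP2K4 (1.14, adjusted p = 3.51e-08) rose. The genes called lower were MAP2K7, given above, and MAPK11 (-0.37, adjusted p = 0.0324), which was at 0.14 under total counts. MAPK11 lost its call without shGlud1 replicate 2 (-0.15, adjusted p = 0.452), shNT replicate 1 (0.169) or shNT replicate 2 (0.133), so that 1, 1 and 0 genes of the cascade were then called lower. At G2/M, where GADD45 proteins restrain CDK1, 12 of 14 genes rose and 0 fell (median 0.89). Besides CCNB1 and AURKA, CCNB2 rose from 15.2 ± 0.25 CPM to 52.4 ± 3.88 CPM (1.79, adjusted p = 1.36e-31). After removal of the length trend 12 were higher and 0 lower, with a median of 0.77. CCNB1, AURKA, CDK1 and CDKN1A are also in the list of binding partners.

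GADD45 proteins have also been linked to active DNA demethylation, in which modified cytosines are cut out by repair enzymes. Of 17 such genes, 15 were tested, of which 6 fell and 5 rose, with a median of 0.09 that lay near that of all genes. Besides ERCC5, MBD4 (1.18, adjusted p = 3.75e-08) and ERCC4 (1.15, adjusted p = 1.56e-05) rose. ERCC1 (-0.84, adjusted p = 5.23e-09), SMUG1 (-0.63, adjusted p = 7.22e-06) and XPA (-0.70, adjusted p = 0.00234) fell, of which SMUG1 and XPA were not called under total counts (-0.11 and -0.19). XPA was not called either with the length trend removed (-0.27, adjusted p = 0.243) or with the coding length trend removed (-0.18, adjusted p = 0.463). The genes called lower include TAF12 and TDG, given above. Without shNT replicate 1 the list had 3 genes called lower, and without shNT replicate 2 it had 3 called higher. TET1 had 0 counts in all 4 libraries.

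Among 16 genes driven by ATF4 or CHOP, 12 fell and 2 rose, with a median of -0.84. Those with the lowest p were DDIT3, PPP1R15A and TRIB3, the last of which encodes a pseudokinase of the amino acid stress response and fell from 374 ± 3.13 CPM to 41.7 ± 8.46 CPM (-3.17, SE 0.15, adjusted p = 3.16e-98). VLDLR (1.18, adjusted p = 1.07e-07) and ERO1L (0.57, adjusted p = 0.000223) rose, and ERO1L was not called without shNT replicate 1 (0.44, adjusted p = 0.0658), with the length trend removed (0.18) or with the coding length trend removed (0.089), which left 1 in each case. Under total counts 8 of these genes were called lower and 4 higher (median -0.32). In the reported fit GADD45A lay near the median of this list, and GADD45B and GADD45G lay far below it. After removal of the length trend the list had 12 genes lower and 1 higher, with a median of -1.04. GADD45A was then at -0.19, well above that median. DDIT3, PPP1R15A and DDIT4 are also in the list of other GADD and DDIT genes.

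**Figure D5:**
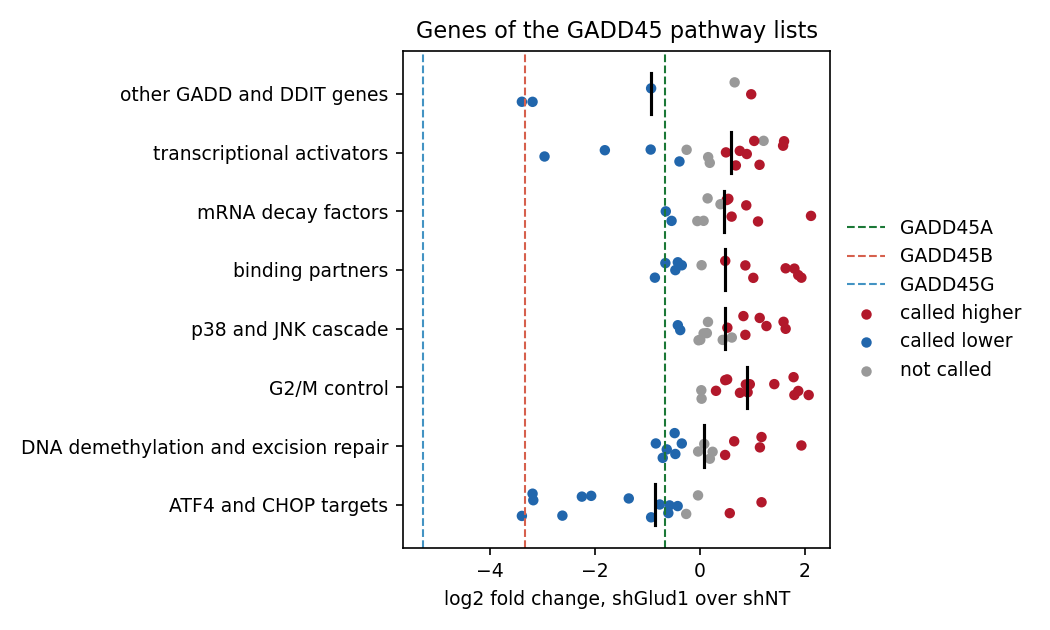
Log2 fold change (horizontal axis) of the tested genes of 8 lists, with genes called higher in red, called lower in blue and not called in grey, the list median as a black bar and the 3 GADD45 genes as dashed lines. The lists of other GADD and DDIT genes and of ATF4 and CHOP targets hold genes near the GADD45B line, whereas G2/M genes lie at or right of 0. DDIT3 and PPP1R15A, which lie near that line, are in both of the former lists.

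The genes whose profile over the 4 libraries was most like that of each member were found by Euclidean distance between centred log2 CPM, in a pool of 9602 genes averaging 5 CPM or more. With 4 libraries in 2 groups such a distance mainly ranks genes by the size of the group difference. Nearest to GADD45A were ZNF707 (distance 0.04), FAM50B (0.06) and LANCL2 (0.06), with log2 fold changes of -0.70, -0.63 and -0.69. Nearest to GADD45B were BAG3, a cochaperone gene induced by heat shock (distance 0.06, log2 fold change -3.29), DDIT3 (0.12, -3.39) and the chemokine gene CCL26 (0.12, -3.45). BAG3 was at 510 and 486 CPM in shNT and at 52.4 and 49.6 CPM in shGlud1. GADD45G had no neighbour as close, the nearest being the noncoding RNAs RMRP (distance 0.45, log2 fold change -5.68) and SNORD3A (0.62, -5.26) and the small heat shock protein gene CRYAB (0.74, -5.85). These distances rest on few counts, since GADD45G had 6 and 15 in shGlud1. RMRP was at 0.25 and 0.65 CPM in the same libraries.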

How the data were processed

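RNA was measured in 4 libraries of U87 cells, 2 shNT and 2 shGlud1, by poly-A selected, paired-end sequencing per the labels' protocols. The authors deposited expected counts, estimated reads per gene that need not be whole. Bowtie 0.12.2 and a mouse build, mm8, are named per the submitters' processing notes, but human gene IDs fill all 57820 rows, so the build is uncertain. The counting program is not given in the sources used here.

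Counts were rounded and tested in edgeR 4.0.16 (R 4.3.3) with filterByExpr (minimum count 10), TMM factors (0.826 to 1.24) and the robust quasi-likelihood test across all genes, with Benjamini-Hochberg adjustment over all genes tested. A gene was called under an adjusted p of 0.05. SEs were obtained as the size of the fold change (log2) over the root of its F statistic. Lengths and positions came from GENCODE 29, matched by Ensembl ID (97.6% of tested genes had a transcript length), and promoters from RefSeq.

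Members and lists were chosen with earlier results of these data known. Named in the text were the members, GLUD1, all genes of the lists of GADD and DDIT genes, repressors and binding partners, up to 3 called higher and 3 called lower by lowest p in each other list described, and the 3 nearest profiles per member. Alternatives were DESeq2 1.42.0, limma-voom 3.58.1, RLE, upper-quartile and total-count scaling, other filters, a replicate block, leaving out each library, and removal of a length trend (lowess, span 0.3). The same trend on the longest coding transcript was added after the data were seen. One gene of the activator list and one list of targets are not reported here.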

Additional observations from a re-analysis of the deposited data

How the results depend on the processing

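Counts of called genes moved by over 1.5 times only under total counts, to 2000 lower and 7592 higher, from 4257 and 4662. GADD45A was at -0.14 under total counts, -0.19 with the length trend removed and -0.17 with the trend on coding length removed. GADD45B was at -2.81, -3.02 and -2.78 under these settings and at -3.39 with RLE factors, and GADD45G at -4.76, -4.67 and -4.54. Leaving out each library gave -5.95 to -4.88 for GADD45G. GLUD1 stayed negative in all 14 alternatives (-1.18 to -0.45). Signs turned for MAP2K7 (0.10), MAPK11 (0.14), TAF12 (0.18) and TDG (0.056) under total counts, and for TAF12 with the length trend removed (0.17, or 0.22 on coding length), with no call in any of these. The median of all genes under total counts was 0.57, above the values of these genes on that scale. The replicate block gave -0.67, -3.33 and -5.28 for the members and 9046 called genes against 8919. Same-numbered libraries had a correlation of deviations of 0.04. With 2 libraries per group that value cannot show whether they shared a culture or a batch. In lists, under total counts, called-lower genes were 0 instead of 2 for decay factors and for the p38 and JNK cascade, 1 instead of 5 for binding partners and 1 instead of 6 for demethylation and repair. Called-higher genes were then 10 instead of 6, 13 instead of 7 and 8 instead of 5 for decay, cascade and repair genes, 2 instead of 1 for GADD and DDIT genes and 4 instead of 2 for ATF4 and CHOP targets. With the length trend removed, activators called higher were 5 instead of 8 (4 on coding length), binding partners called lower 3 instead of 5 and ATF4 and CHOP targets called higher 1 instead of 2. On coding length, decay factors called higher were 2 instead of 6. Activators called higher under total counts were 12 instead of 8, and ATF4 and CHOP targets called lower 8 instead of 12. The cause of these shifts was not tested. Depth limits GADD45G in shGlud1, at 6 and 15 counts.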
